A study of Mus musculus with 7 samples.

Results

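The proneural basic helix-loop-helix (bHLH) genes Neurod1, Neurod2, Neurod4, Neurod6, Neurog1, Neurog2, Neurog3 and Atoh1 were examined for H3K27ac, an acetylation of histone H3 that marks active promoters and enhancers. Each gene was taken as its gene body plus 10 kb on each side in the mouse mm10 genome (GENCODE M21 gene models), and every merged H3K27ac peak overlapping that window was kept, whatever its values. This gave 11 of the 66841 merged peaks of the series, at 4 of the 8 genes: 4 peaks at Neurod1, 4 at Neurod4, 2 at Neurog1 and 1 at Neurog3. The windows of Neurod2, Neurod6, Neurog2 and Atoh1 held none of the merged peaks. The authors called the merged peaks from these same libraries, so a peak low at 0 h may be present only through a later time point. Gains from 0 h at such peaks are not independent of that selection. The study profiled A2Lox-NeuroD1 mouse embryonic stem (ES) cells, a transgenic line with a doxycycline-inducible promoter that drives the coding sequence of murine NeuroD1 with an HA-tag at its N-terminus. All groups carried this transgene, and for the experiments the cells were grown without feeders on gelatin in medium containing LIF. The groups were cells without doxycycline (0 h) and cells with doxycycline at 500 ng/ml for 12 h or 48 h, each in duplicate (R1 and R2), and 6 H3K27ac libraries were thus available. Time points are those of the sample labels, whose treatment text is the same for all libraries and names 48 h of induction only. Whether R1 and R2 were separate cultures is not stated, so p-values measure only the spread between these libraries, which may be technical.

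Proneural bHLH factors drive progenitor cells towards a neuronal fate. They pair with E proteins such as Tcf12 and bind E-boxes, short motifs of the form CANNTG. Members of the Neurog group and Atoh1 typically act in progenitors and early committed cells, whereas those of the Neurod group act later, during differentiation, and in several neural tissues Neurog factors lie upstream of Neurod genes. Id proteins counteract the family by binding E proteins, and Hes proteins are repressors downstream of Notch.

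To show the DNA on which the acetylation results rest, the sequences of the Neurod1 promoter and of the central 300 bp of 5 peaks at Neurod4 and Neurog1 are printed here, read from the mm10 genome on the minus strand, which is the sense strand of the 3 genes. E-boxes are in capitals. The promoter is the 250 bp upstream of the TSS (chr2:79456752-79457001), and the peak centres are chr10:130282061-130282360 (Neurod4, 2.0 kb upstream of the TSS), chr10:130259503-130259802 (Neurod4, 20.6 kb downstream), chr10:130287153-130287452 (Neurod4, 7.1 kb upstream), chr13:56258658-56258957 (Neurog1, 6.6 kb upstream) and chr13:56259848-56260147 (Neurog1, 7.8 kb upstream).
Neurod1 promoter: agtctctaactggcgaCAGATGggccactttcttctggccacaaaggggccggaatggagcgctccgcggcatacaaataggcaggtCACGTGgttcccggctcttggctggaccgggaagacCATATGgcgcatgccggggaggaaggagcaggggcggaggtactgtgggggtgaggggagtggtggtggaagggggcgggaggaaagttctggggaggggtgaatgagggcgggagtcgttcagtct
Neurod4, 2.0 kb upstream: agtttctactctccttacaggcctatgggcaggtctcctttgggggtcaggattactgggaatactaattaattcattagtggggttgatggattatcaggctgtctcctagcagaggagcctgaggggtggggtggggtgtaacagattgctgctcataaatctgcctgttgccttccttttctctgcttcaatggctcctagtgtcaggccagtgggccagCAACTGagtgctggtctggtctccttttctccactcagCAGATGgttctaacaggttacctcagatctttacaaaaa
Neurod4, 20.6 kb downstream: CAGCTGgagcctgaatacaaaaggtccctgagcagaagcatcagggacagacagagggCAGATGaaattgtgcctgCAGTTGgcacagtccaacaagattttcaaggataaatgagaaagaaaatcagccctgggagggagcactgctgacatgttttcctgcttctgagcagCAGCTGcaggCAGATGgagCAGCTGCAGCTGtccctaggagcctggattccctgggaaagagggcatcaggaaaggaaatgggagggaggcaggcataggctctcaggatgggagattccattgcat
Neurod4, 7.1 kb upstream: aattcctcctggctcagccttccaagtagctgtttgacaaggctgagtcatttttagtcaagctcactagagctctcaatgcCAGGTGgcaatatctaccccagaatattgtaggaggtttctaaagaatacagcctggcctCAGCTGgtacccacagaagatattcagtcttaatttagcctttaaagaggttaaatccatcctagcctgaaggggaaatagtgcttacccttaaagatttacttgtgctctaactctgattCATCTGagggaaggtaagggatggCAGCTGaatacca
Neurog1, 6.6 kb upstream: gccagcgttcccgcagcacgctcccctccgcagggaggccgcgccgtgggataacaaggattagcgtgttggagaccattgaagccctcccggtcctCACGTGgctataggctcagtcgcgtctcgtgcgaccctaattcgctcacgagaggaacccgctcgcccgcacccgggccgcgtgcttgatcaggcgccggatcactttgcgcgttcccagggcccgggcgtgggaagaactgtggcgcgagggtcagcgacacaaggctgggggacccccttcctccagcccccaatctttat
Neurog1, 7.8 kb upstream: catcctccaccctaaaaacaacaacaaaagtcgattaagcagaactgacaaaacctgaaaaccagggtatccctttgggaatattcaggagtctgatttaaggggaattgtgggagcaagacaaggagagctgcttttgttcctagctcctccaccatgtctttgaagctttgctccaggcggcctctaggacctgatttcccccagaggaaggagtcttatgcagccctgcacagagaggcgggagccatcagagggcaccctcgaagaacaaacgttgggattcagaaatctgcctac

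Distances given as upstream or downstream are from the TSS to the centre of the peak. CANNTG was searched on both strands, and the forms CAGATG (reverse complement included) and CAGCTG were counted among its matches. The Neurod1 and Neurod2 promoters each held 3 E-boxes, 1 of which was CAGATG in both. The Neurod6 promoter held 2 of other forms and the Neurog3 promoter held a single CAGCTG, whereas the same 250 bp of Neurod4, Neurog1, Neurog2 and Atoh1 held no CANNTG. For comparison, 66.2% of 32851 windows of the same length upstream of RefSeq gene starts held at least 1 E-box, 14.4% held CAGATG and 13.0% held CAGCTG. The central 300 bp of the Neurod4 peak 20.6 kb downstream held 7 E-boxes, of which 4 were CAGCTG and 2 CAGATG, and that of the Neurod4 peak 7.1 kb upstream held 4. That of the Neurod4 peak 2.0 kb upstream held 2, and that of the Neurod4 promoter peak held CAAGTG only. The central 300 bp of the Neurog1 peak 6.6 kb upstream held CACGTG only, and that of the peak 7.8 kb upstream held none. The Neurog3 peak and the Neurod1 peak 7.0 kb upstream held 3 each, of which 2 at Neurog3 and 1 at Neurod1 were CAGCTG and 1 at either was CAGATG. Among the central 300 bp of 66783 merged peaks, the median was 1 E-box, 75.3% held at least 1, 18.5% held CAGATG and 16.1% held CAGCTG. These matches describe the sequence and do not locate bound factors.

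The values are reads per merged peak, of which the libraries held 6283103 to 8112895 in all. A scaled count is the read count per library total, times the mean of the 6 totals, and the median merged peak had a mean scaled count of 30.4. Replicates of a time point differed by more than sampling noise, with a chi-square per degree of freedom of 1.83 at 0 h, 1.43 at 12 h and 5.63 at 48 h, so the 48 h replicates stood furthest apart. The test between time points was edgeR's quasi-likelihood test in 1 model of all 6 libraries, with p-values adjusted by the Benjamini-Hochberg method over all 66841 peaks, and a peak was called gained or lost at an adjusted p under 0.05. In these bulk libraries, fewer cells carrying the mark and less of the mark per cell cannot be told apart.

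At 12 h, 5 of the 11 peaks had gained H3K27ac relative to 0 h, none had lost it and 6 did not pass the test. Over all merged peaks, 9.93% were gained and 6.03% lost in this comparison. The 5 peaks were both Neurog1 peaks, the pair of Neurod1 peaks next to its TSS and the Neurod4 peak 2.0 kb upstream. At 48 h, 7 of the 11 peaks were above 0 h by the test, beside 8.56% of all merged peaks, and none was below it, beside 5.45%. The 7 were all 4 Neurod4 peaks, the same pair at Neurod1, and the Neurog1 peak 7.8 kb upstream. Between 12 h and 48 h the genes parted: 3 peaks were gained, beside 10.7% of all merged peaks, and all 3 lay at Neurod4. In the same comparison 4 peaks were lost, beside 8.43% of all merged peaks, namely both Neurog1 peaks, the Neurog3 peak and the Neurod1 peak 1.8 kb upstream. Of the 4 peaks within 2 kb of a TSS, 3 were gained at 12 h and 4 at 48 h, beside 2.4% and 4.87% of all promoter peaks, and of the other 7 peaks, 2 and 3 were gained, beside 12.4% and 9.76% of all peaks outside promoters. Between 12 h and 48 h, 2 of the 4 promoter peaks were gained and 1 was lost, beside 27.4% and 2.61% of promoter peaks, and 1 of the 7 others was gained and 3 were lost, beside 5.29% and 10.3%. The median log2 fold change over the 11 peaks was 1.20 at 12 h and 1.71 at 48 h relative to 0 h, and 0.22 between 12 h and 48 h, whereas the medians over all merged peaks were −0.08, −0.04 and −0.03. Scaling by TMM factors turned the 6638 gained and 4028 lost peaks of the whole series at 12 h into 7572 gained and 2637 lost, and left all counts for the 11 peaks as they were.

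**Figure D1:**
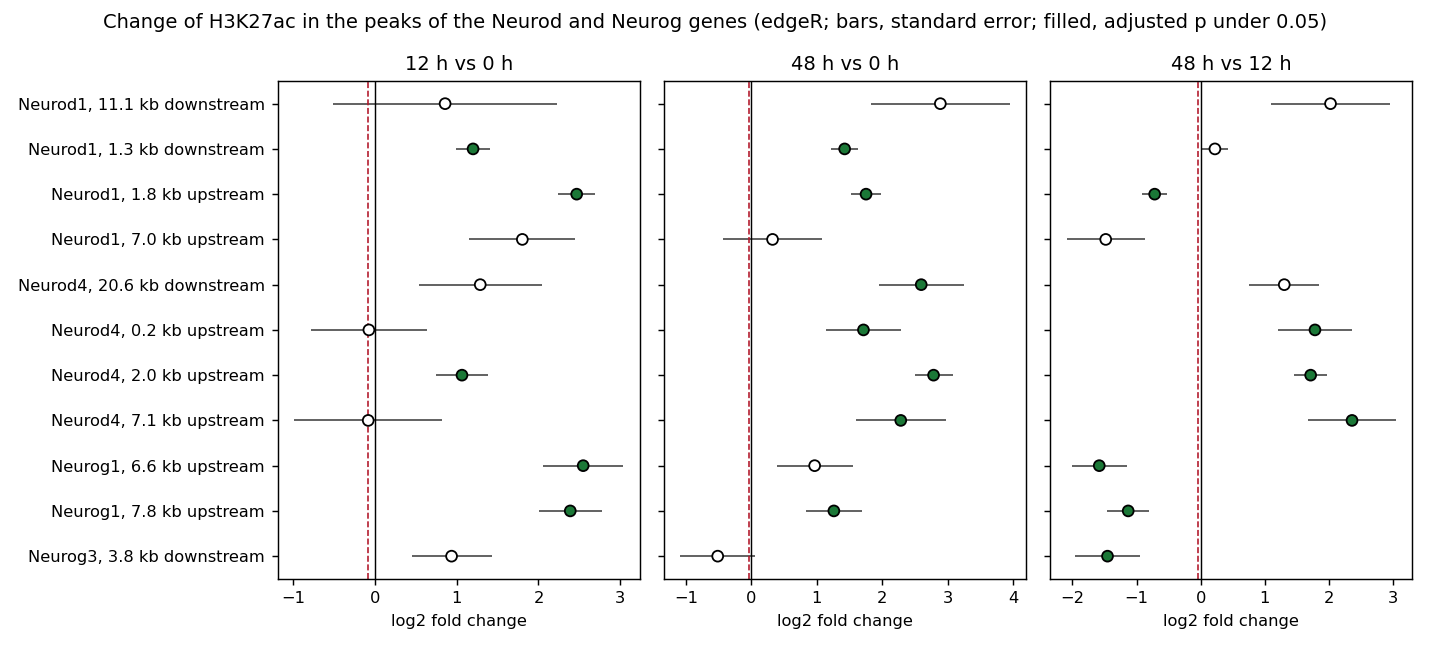
Log2 fold changes with their SE (horizontal axis) of the 11 merged peaks at Neurod1, Neurod4, Neurog1 and Neurog3 (vertical axis, named by the distance from the TSS to the peak centre) for 12 h against 0 h, 48 h against 0 h and 48 h against 12 h, from edgeR. Filled green points have an adjusted p under 0.05 and the red dashed line is the median of all merged peaks (−0.08, −0.04 and −0.03); the 4 Neurod4 peaks lie at 1.71 or above in the second comparison, and both Neurog1 peaks lie at −1.13 or below in the third.

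Neurod1 encodes the TF that doxycycline induces in these cells, and its endogenous locus (chr2:79452521-79456751, minus strand, 2 exons) carried the most acetylation among the 8 genes. The peak centred 1.8 kb upstream of the TSS (chr2:79456988-79460121) overlapped the Neurod1 promoter, the annotated span of the lncRNA Gm26755, and no coding sequence of Neurod1. Its scaled counts (R1 before R2 at each time point, here and throughout) were 71.8 and 63.7 without doxycycline, 385 and 366 after 12 h and 187 and 268 after 48 h. Both 12 h libraries were the highest, both 0 h libraries the lowest, and the 3 time points did not overlap. The log2 fold change was 2.47 ± 0.22 (SE; adjusted p = 8.47e-08) at 12 h, a 5.53-fold gain that 1.37% of all merged peaks exceeded, and 1.75 ± 0.22 (SE; adjusted p = 6.57e-06) at 48 h. From 12 h to 48 h the peak fell, with a log2 fold change of −0.72 ± 0.20 (SE; adjusted p = 0.0149). This loss did not pass the test without 12 h R1 (−0.68) or without 12 h R2 (−0.75), nor against a minimum change of 1.5-fold. Without either 12 h library, far fewer of all merged peaks were called between 12 h and 48 h as well.

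The second large Neurod1 peak, centred 1.3 kb downstream of the TSS (chr2:79454052-79456929), covered the promoter and most of the gene. This peak also overlapped the annotated spans of Cerkl and Gm26755. Of its 2878 bp, 986 bp were coding sequence of Neurod1, which is 92.1% of the coding length. Its scaled counts were 106 and 90.2 without doxycycline, 249 and 202 after 12 h and 276 and 250.2 after 48 h. All induced libraries lay above both 0 h libraries, and the lower 48 h library was just above the higher 12 h library. The gain was 1.20 ± 0.21 (SE; adjusted p = 0.000403) on the log2 scale at 12 h and 1.42 ± 0.21 (SE; adjusted p = 4.43e-05) at 48 h, and the difference between 12 h and 48 h of 0.22 ± 0.20 (SE; adjusted p = 0.451) did not pass the test. Without 0 h R2, the gain at 12 h no longer passed the test (log2 fold change 1.09). The transgene holds the same coding sequence, so reads from the transgene and from the endogenous gene cannot be told apart in this peak. The upstream peak lies outside the coding sequence, and the difference between the gains of the pair was not tested.

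The remaining Neurod1 peaks were small. The one 7.0 kb upstream (chr2:79463636-79463927) had scaled counts of 5.13 and 3.18 without doxycycline, 15.0 and 14.7 after 12 h and 2.22 and 7.74 after 48 h. Both 12 h libraries were above the other 4, but with 2 to 16 reads per library the log2 fold change of 1.80 ± 0.65 (SE; adjusted p = 0.0589) at 12 h missed the threshold. The peak 11.1 kb downstream of the TSS (chr2:79445525-79445796), within the body of the neighbouring gene Cerkl, held 1 and 1 without doxycycline, 3 and 1 after 12 h and 13 and 4 after 48 h in reads. Both 48 h libraries were the highest here, with a ratio of 48 h to 0 h reads of 7.89 (exact 95% counting interval 1.87 to 70.4) and an adjusted p of 0.0714. As levels per kb of peak, the upstream Neurod1 peak went from 21.6 scaled counts per kb at 0 h to 119.8 at 12 h and 72.6 at 48 h, and the peak over the gene from 34.0 to 78.4 and 91.5. The log2 ratio of the upstream peak to the peak over the gene, taken within each library, was −0.56 and −0.50 without doxycycline, 0.63 and 0.86 after 12 h and −0.57 and 0.10 after 48 h. The upstream peak was therefore the larger of the pair in both 12 h libraries, the smaller in both 0 h libraries, and on different sides in the 48 h replicates.

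**Figure D2:**
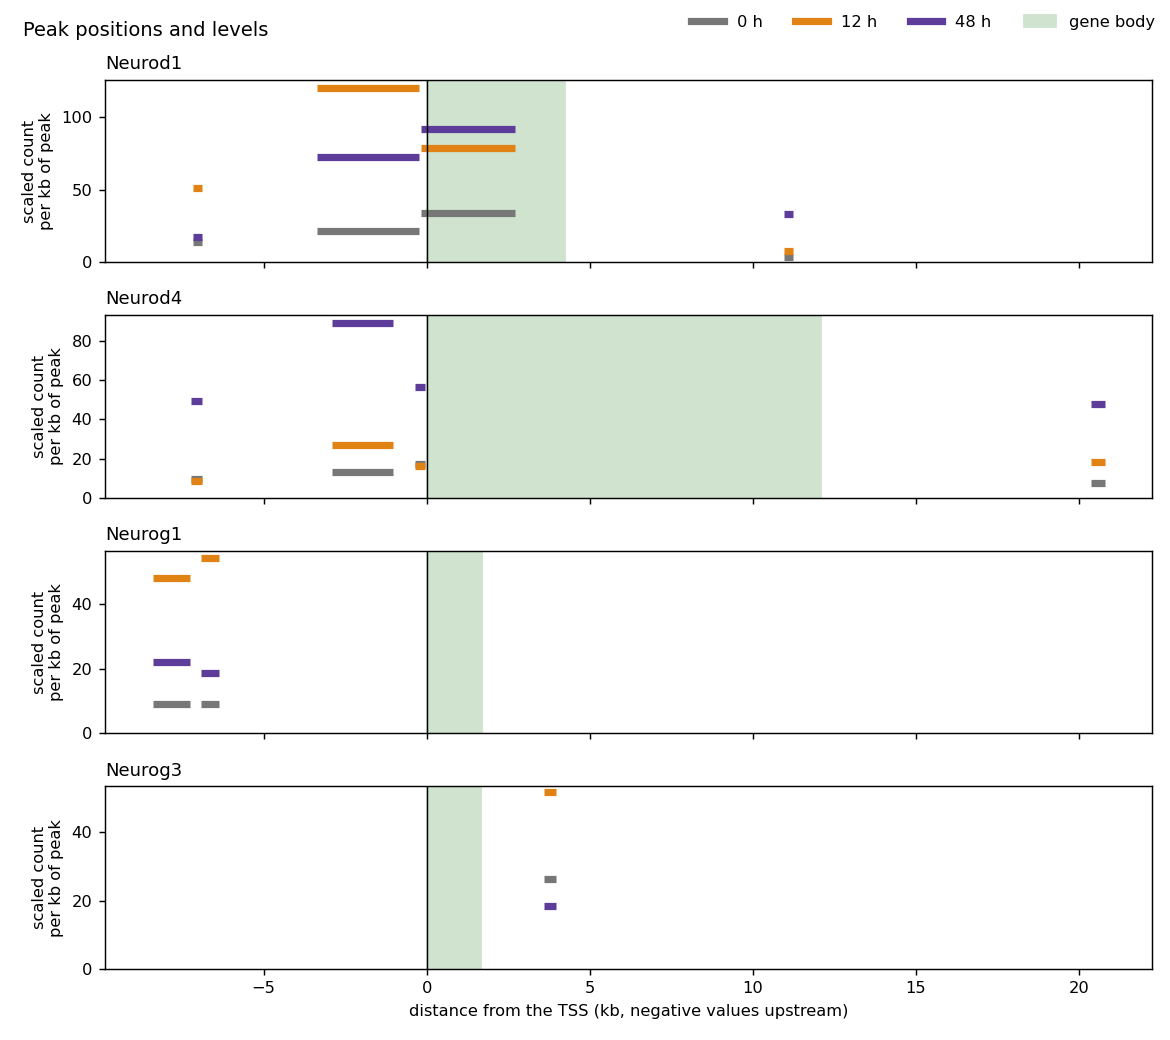
H3K27ac at Neurod1, Neurod4, Neurog1 and Neurog3, drawn as mean scaled count per kb of peak (vertical axis) against distance from the TSS in kb along the direction of transcription (horizontal axis), for 0 h (grey), 12 h (orange) and 48 h (purple), with the gene body as a green band. The Neurod1 peak 1.8 kb upstream reached 119.8 scaled counts per kb at 12 h, and the Neurod4 peak 2.0 kb upstream reached 89.1 at 48 h.

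Neurod4 is a family member active in differentiating neurons and retinal cells. Within its 10 kb window it gained H3K27ac in a small step by 12 h, at the largest of the 4 peaks, and in a larger step by 48 h. With 25 kb on each side the first step was the larger (1.33, then 0.71 on the log2 scale). Its gene (chr10:130268152-130280240, minus strand, 2 exons) had no peak in the gene body and 4 peaks around it. The largest, centred 2.0 kb upstream of the TSS (chr10:130281264-130283157), had scaled counts of 30.8 and 18.0 without doxycycline, 47.2 and 55.2 after 12 h and 149.9 and 187 after 48 h. The 3 time points did not overlap and were in rising order, which held for 2 of the 11 peaks and for 4% of all merged peaks. Relative to 0 h the log2 fold change was 1.06 ± 0.32 (SE; adjusted p = 0.0246) at 12 h and 2.78 ± 0.29 (SE; adjusted p = 3.78e-07) at 48 h, a 6.88-fold gain. The step from 12 h to 48 h was 1.72 ± 0.26 (SE; adjusted p = 0.000147). The gain at 12 h was lost with an offset on GC content (0.71), against a minimum change of 1.5-fold, and without 0 h R2 (0.73), 12 h R1 (1.17) or 12 h R2 (0.94), whereas both differences of 48 h passed the test in every alternative.

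The other Neurod4 peaks were narrow and held few reads, and any of them may have entered the merged set through its 48 h libraries alone. The one 0.2 kb upstream (chr10:130280285-130280589), at the promoter, had scaled counts of 7.18 and 3.18 without doxycycline, 4.29 and 5.52 after 12 h and 15.5 and 18.9 after 48 h. Its 0 h and 12 h libraries overlapped and both 48 h libraries lay above them, with a log2 fold change of 1.71 ± 0.58 (SE; adjusted p = 0.0480) against 0 h and 1.79 ± 0.58 (SE; adjusted p = 0.0319) against 12 h. The peak 7.1 kb upstream (chr10:130287141-130287463) showed the same order, with scaled counts of 3.08 and 3.18 without doxycycline, 1.07 and 4.60 after 12 h and 18.9 and 12.9 after 48 h. Its reads at 48 h were in a ratio to those at 0 h of 4.95 (exact 95% counting interval 2.04 to 14.5), with an adjusted p of 0.0273, and the log2 fold change against 12 h was 2.36 ± 0.69 (SE; adjusted p = 0.0189). Beyond the 3′ end of the gene, 20.6 kb downstream of the TSS (chr10:130259446-130259859), the E-box-rich peak had scaled counts of 2.05 and 4.25 without doxycycline, 3.22 and 12.0 after 12 h and 22.2 and 17.2 after 48 h. Both 48 h libraries were again the highest, with a log2 fold change of 2.59 ± 0.65 (SE; adjusted p = 0.00862) against 0 h, and the difference from 12 h of 1.31 ± 0.54 (SE; adjusted p = 0.0922) did not pass the test. None of these 3 peaks changed by the test at 12 h (adjusted p between 0.241 and 0.959). Both 48 h libraries exceeded the other 4 libraries at all 4 Neurod4 peaks, an order found at 6 of the 11 peaks and at 13.5% of all merged peaks. The calls at the 3 narrow peaks were fragile: those at 48 h against 0 h were each lost without 0 h R1 and without 0 h R2, and DESeq2 gave an adjusted p of 0.22 for the promoter peak, 0.0495 for the downstream peak and none for the peak 7.1 kb upstream.

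**Figure D3:**
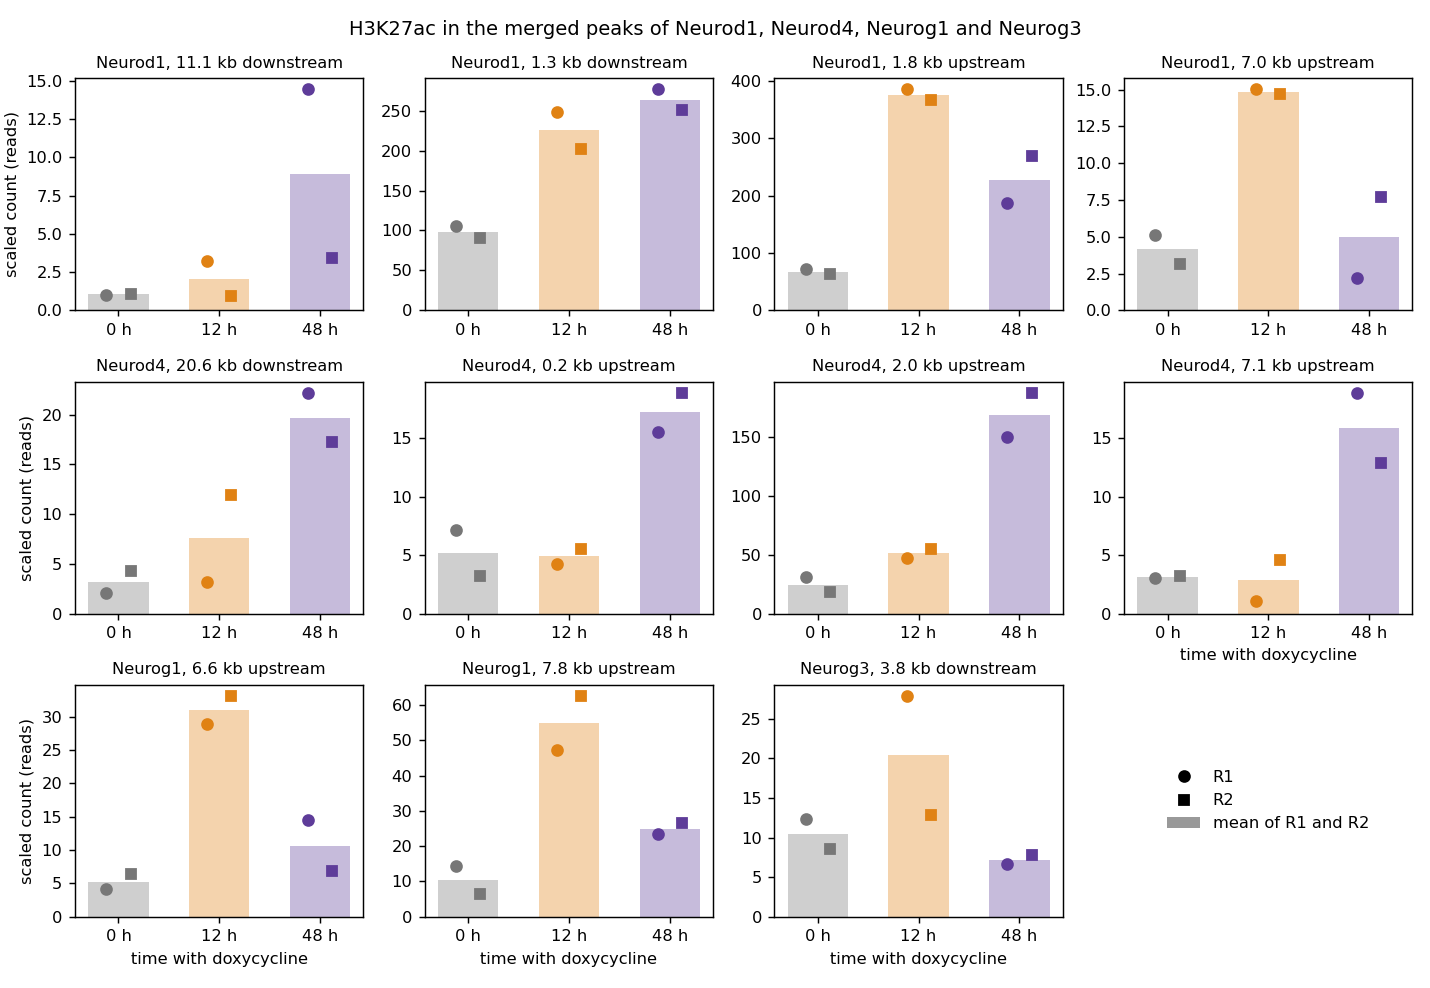
Scaled H3K27ac counts (vertical axis) of the 11 merged peaks in each library, at 0 h (grey), 12 h (orange) and 48 h (purple), with R1 as circles and R2 as squares. Both 48 h libraries were the highest at all 4 Neurod4 peaks, and both 12 h libraries were the highest at both Neurog1 peaks.

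Neurog1, which specifies early neuronal progenitors, showed a gain that was largest at 12 h. Its gene (chr13:56250478-56252163, minus strand, 1 exon) had no peak in the gene body or within 5 kb, and both of its peaks lay upstream, outside the promoters of all annotated protein-coding genes. The peak 6.6 kb upstream (chr13:56258521-56259093) had scaled counts of 4.10 and 6.37 without doxycycline, 28.9 and 33.1 after 12 h and 14.4 and 6.88 after 48 h. Both 12 h libraries were the highest, and the 48 h libraries lay between them and 0 h. The log2 fold change was 2.55 ± 0.49 (SE; adjusted p = 0.00103) at 12 h, a 5.84-fold gain that 1.21% of all merged peaks exceeded, and at 48 h the value of 0.97 ± 0.58 (SE; adjusted p = 0.303) did not pass the test. From 12 h to 48 h the peak fell by 1.58 on the log2 scale (adjusted p = 0.0132).

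The Neurog1 peak 7.8 kb upstream (chr13:56259427-56260568) followed the same course. Its scaled counts were 14.4 and 6.37 without doxycycline, 47.2 and 62.6 after 12 h and 23.3 and 26.7 after 48 h, so that the time points did not overlap and 12 h was again the highest. Log2 fold changes were 2.39 ± 0.38 (SE; adjusted p = 0.000132) at 12 h, 1.26 ± 0.42 (SE; adjusted p = 0.0472) at 48 h and −1.13 ± 0.33 (SE; adjusted p = 0.0191) between 12 h and 48 h. The gain at 12 h passed the test at this peak in every alternative, with log2 fold changes between 1.93 and 3.09. The gain at 48 h was lost with DESeq2 (1.34), in a fit of the 0 h and 48 h libraries alone (1.26), against a minimum change of 1.5-fold, and without 1 library in 5 of 6 cases (all but 48 h R1). The losses from 12 h to 48 h were lost at both peaks without 12 h R1 or 12 h R2, and against a minimum change of 1.5-fold, at the peak 6.6 kb upstream also without 48 h R2 (−1.10), and at the peak 7.8 kb upstream also with DESeq2 (−1.12; adjusted p = 0.0807). Both 12 h libraries exceeded the other 4 at 5 of the 11 peaks, namely both Neurog1 peaks, the Neurog3 peak and the Neurod1 peaks 1.8 and 7.0 kb upstream. Over all merged peaks this order was seen at 17.8%. Both 0 h libraries were below the other 4 at 5 of the 11 peaks, beside 13% of all merged peaks.

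Neurog3, the endocrine progenitor factor of the pancreas, had a single peak 3.8 kb downstream of its TSS (chr10:62136677-62137069), within the body of Fam241b, for a gene at chr10:62133090-62134763 (plus strand, 2 exons). The TSS nearest to the peak centre was that of Fam241b, 2997 bp away. The scaled counts were 12.3 and 8.49 without doxycycline, 27.9 and 12.9 after 12 h and 6.66 and 7.74 after 48 h. The 12 h replicates differed widely and the lower of them was close to 0 h R1, while both 48 h libraries were below the other 4. Neither 12 h (0.94 ± 0.49 SE, adjusted p = 0.190) nor 48 h (−0.52 ± 0.57 SE, adjusted p = 0.613) differed from 0 h by the test. The log2 fold change between 12 h and 48 h was −1.45 ± 0.51 (SE; adjusted p = 0.0490), just past the threshold. This call was lost without any 1 of the libraries except 48 h R2, in a fit of 4 libraries (−1.45), and against a minimum change of 1.5-fold. DESeq2 gave no adjusted p for this difference. The edgeR test over the 3 time points together did not pass at this peak (adjusted p = 0.0709).

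Neurod2, Neurod6, Neurog2 and Atoh1 had no merged peak within 10 kb, and 50.0% of the 8 genes had one, compared with 73.7% of the 21924 protein-coding genes. A window without a merged peak does not show that acetylation was absent there. Neurod2 (chr11:98325415-98329648), a cortical neuron factor, lay 19083 bp from its nearest peak (from gene body to peak edge, as for the other 3 genes), which was at the promoter of Ppp1r1b and had scaled counts of 14.4 and 20.2 without doxycycline, 7.51 and 12.9 after 12 h and 25.5 and 10.3 after 48 h. These ranges overlapped between 0 h and 48 h. For Neurod6 (chr6:55677822-55681263), the nearest peak was 108086 bp away. The distance was 78743 bp for Neurog2 (chr3:127633135-127635631), to the shared promoter of Larp7 and Zgrf1. For Atoh1 (chr6:64729125-64731245), the factor of cerebellar granule cells and hair cells, it was 75095 bp, to a peak with scaled counts of 11.3 and 14.9 without doxycycline, 13.9 and 12.0 after 12 h and 5.55 and 8.60 after 48 h.

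To give 1 value per gene, reads were summed over the peaks of each window and fitted for all 16152 protein-coding genes with a peak. Windows of neighbouring genes can share peaks. The Neurod1 window had scaled counts of 171 ± 18.1 (mean ± SD, n = 2) without doxycycline, 618 ± 47.9 after 12 h and 505 ± 35.4 after 48 h, and the log2 fold change was 1.85 ± 0.14 (SE; adjusted p = 9.97e-05) at 12 h and 1.56 ± 0.14 (SE; adjusted p = 0.000130) at 48 h. The Neurod4 window had 35.9 ± 10.2, 66.5 ± 15.2 and 221 ± 21.2, with log2 fold changes of 0.89 ± 0.28 (SE; adjusted p = 0.0325) and 2.62 ± 0.26 (SE; adjusted p = 0.000198). Neurod1 thus had its highest sum at 12 h and Neurod4 at 48 h. The Neurog1 window had 15.6 ± 4.06, 85.9 ± 13.8 and 35.6 ± 2.98, with log2 fold changes of 2.45 ± 0.32 (SE; adjusted p = 0.00146) and 1.18 ± 0.35 (SE; adjusted p = 0.0541). For the Neurog3 window, which holds the single peak, neither change from 0 h passed the test (0.160 and 0.665 as adjusted p).

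At 12 h, 3 of these 4 windows were gained, beside 7.13% of all windows, of which 30.2% were lost. At 48 h it was 2 of 4, beside 6.46%, and none was lost, beside 5.36%. Between 12 h and 48 h, Neurod4 was gained (1.73 ± 0.24 SE, adjusted p = 0.00241), beside 38.2% of all windows, and Neurog1 (−1.27; adjusted p = 0.00823) and Neurog3 (−1.45; adjusted p = 0.0464) were lost, beside 7.72%. The Neurod1 window moved by −0.29 ± 0.13 (SE; adjusted p = 0.0880) in that interval. The median window of the series moved by −0.29 at 12 h and 0.03 at 48 h relative to 0 h, and by 0.32 between 12 h and 48 h, so the changes of Neurog1 and Neurog3 in that interval ran against the median. With the offset on GC content, the median at 12 h was −0.16. With TMM factors, 1155 windows of the whole series were gained and 1754 lost at 12 h in place of 1152 and 4876, and 1155 and 489 at 48 h in place of 1043 and 865, and the calls at the 4 windows were as before except that the Neurog1 window was also gained at 48 h (1.25). The gain of the Neurod4 window at 12 h was lost with the offset on GC content (0.60) and without any 1 of the 0 h or 12 h libraries. With that offset, the Neurog1 window was also gained at 48 h (1.27) and the Neurod1 window was lost between 12 h and 48 h (−0.33). The gain of the Neurog1 window at 12 h was lost without 0 h R2 (2.21), and DESeq2 gave no adjusted p for it. Between 12 h and 48 h, the losses of the Neurog1 and Neurog3 windows were not called without 12 h R1 or without 12 h R2, and the gain of the Neurod4 window was not called without 12 h R1 (1.52). The loss of the Neurog3 window was also not called without either 0 h library or 48 h R1, with the 4 libraries alone, or without promoter peaks of other genes. With 25 kb on each side the Neurog3 window, which then held 3 more peaks, turned into a called gain between 12 h and 48 h (0.81; adjusted p = 0.0185). Both changes of this wider window from 0 h were called gains too, of 0.80 (adjusted p = 0.0325) by 12 h and 1.61 (adjusted p = 0.00262) by 48 h. The Neurod4 window of 25 kb gained 1.33 (adjusted p = 0.00351) by 12 h and a further 0.71 (adjusted p = 0.0125) by 48 h, in place of 0.89 and 1.73.

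The genes also changed order within single libraries. The log2 ratio of the Neurog1 window to the Neurod4 window was −1.22 and −1.17 without doxycycline, 0.45 and 0.31 after 12 h and −2.45 and −2.82 after 48 h. Neurog1 was therefore above Neurod4 in both 12 h libraries and below it in the other 4, on a scale of reads summed per window and not corrected for peak length. The log2 ratio of the Neurod4 window to the Neurod1 window was −2.09 and −2.46 without doxycycline, −3.55 and −2.92 after 12 h and −1.22 and −1.16 after 48 h, so that Neurod4 came closest to Neurod1 in both 48 h libraries.

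Among 15335 windows with a mean scaled count of at least 20, those with the profile closest to Neurod1 over the 6 libraries, by Euclidean distance between centred log2 profiles, were Tnfsf11 (0.29), Frmd4b (0.30) and Gadd45g (0.31). For Neurod4 they were Cd300ld3 (0.46), Cd40 (0.54) and Medag (0.54), and for Neurog1 the closest was Ky (0.47). Gadd45g, a stress-response gene known as a target of proneural factors, had mean scaled counts of 95.0 at 0 h, 321 at 12 h and 269 at 48 h. These distances describe the libraries and were not tested.

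Further genes of the proneural pathway were read by window from lists. Their counts stand beside 7.13% of all windows gained and 30.2% lost at 12 h, and 6.46% gained and 5.36% lost at 48 h. With the offset on GC content, 1261 of all 16152 windows were gained at 12 h and 3172 lost. At 48 h, 2419 were gained and 1333 lost with that offset. Among other neural bHLH genes, 5 had a peak, and Bhlhe23, Olig1, Olig2, Olig3, Ptf1a and Ferd3l had none. Nhlh1 and Nhlh2, which act in early post-mitotic neurons, were gained in all 3 comparisons. Between 12 h and 48 h, 38.2% of all windows were gained as well. The log2 fold change of Nhlh1 was 1.07 at 12 h and 2.17 at 48 h, and that of Nhlh2 1.07 and 2.05. The other 3 with a peak (Atoh7, Atoh8 and Bhlhe22) did not pass the test in any of the 3 comparisons. Atoh8 was gained at 48 h with the offset on GC content (1.07). The list's median was 0.25 at 12 h and 0.98 at 48 h relative to 0 h, beside −0.29 and 0.03 over all windows.

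Both E protein genes of the list had peaks. Tcf12 was gained at 48 h (0.59 ± 0.12 SE, adjusted p = 0.00992) and not at 12 h (−0.07; adjusted p = 0.670). Tcf3 was lost at 12 h (−0.36 ± 0.09 SE, adjusted p = 0.0162), a change close to the median of all windows, and did not pass the test at 48 h. This loss was not called with TMM factors (−0.29), DESeq2 (−0.31) or the offset on GC content (−0.15). Of the 4 Id genes, none was called at 12 h (log2 fold changes between 0.01 and 0.20), and at 48 h only Id2 was gained, with 0.84 ± 0.14 (SE; adjusted p = 0.00298). With the offset on GC content, Id2 was also gained at 12 h (0.31), and Id3 (0.64) and Id4 (0.49) at 48 h. Of the 5 Hes genes, Hes6, known to promote neuronal differentiation, was gained at 12 h (1.37) and at 48 h (1.53). At 12 h, Hes3 (−0.51), Hes5 (−0.60) and Hes7 (−0.89) were lost, where 30.2% of all windows were, and none of the Hes genes was lost at 48 h, while Hes1 passed the test at neither time. With TMM factors or the offset on GC content only the loss of Hes7 was called (−0.82 and −0.65), and DESeq2 called those of Hes3 (−0.46) and Hes7 (−0.84), while the gain of Hes6 was called in all 3.

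All 12 genes listed as targets of proneural factors had peaks. At 12 h, 5 were gained, beside 7.13% of all windows, and 1, Rnd2, was lost (−0.39), beside 30.2%. The loss of Rnd2 was not called with TMM factors (−0.32), DESeq2 (−0.34) or the offset on GC content (−0.18). At 48 h, 7 were gained, beside 6.46%, and none was lost, beside 5.36%. The Notch ligand gene Dll1 rose by 1.31 ± 0.19 (SE; adjusted p = 0.00231) on the log2 scale at 12 h, and the zinc-finger gene Insm1 by 2.04 ± 0.20 (SE; adjusted p = 0.000171) at 48 h. Ebf2, a TF gene of neuronal differentiation, had the largest gain of the list at 48 h, 3.26 ± 0.28 (SE; adjusted p = 0.000111). Dll3 and Mfng passed the test at 48 h (1.06 and 0.57) and not at 12 h. With the offset on GC content both were also gained at 12 h (0.44 and 0.54). That offset gave 7 gained genes of the list at 12 h and 9 at 48 h, beside 1261 and 2419 of all 16152 windows. The median of the list was 0.23 at 12 h and 0.82 at 48 h.

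**Figure D4:**
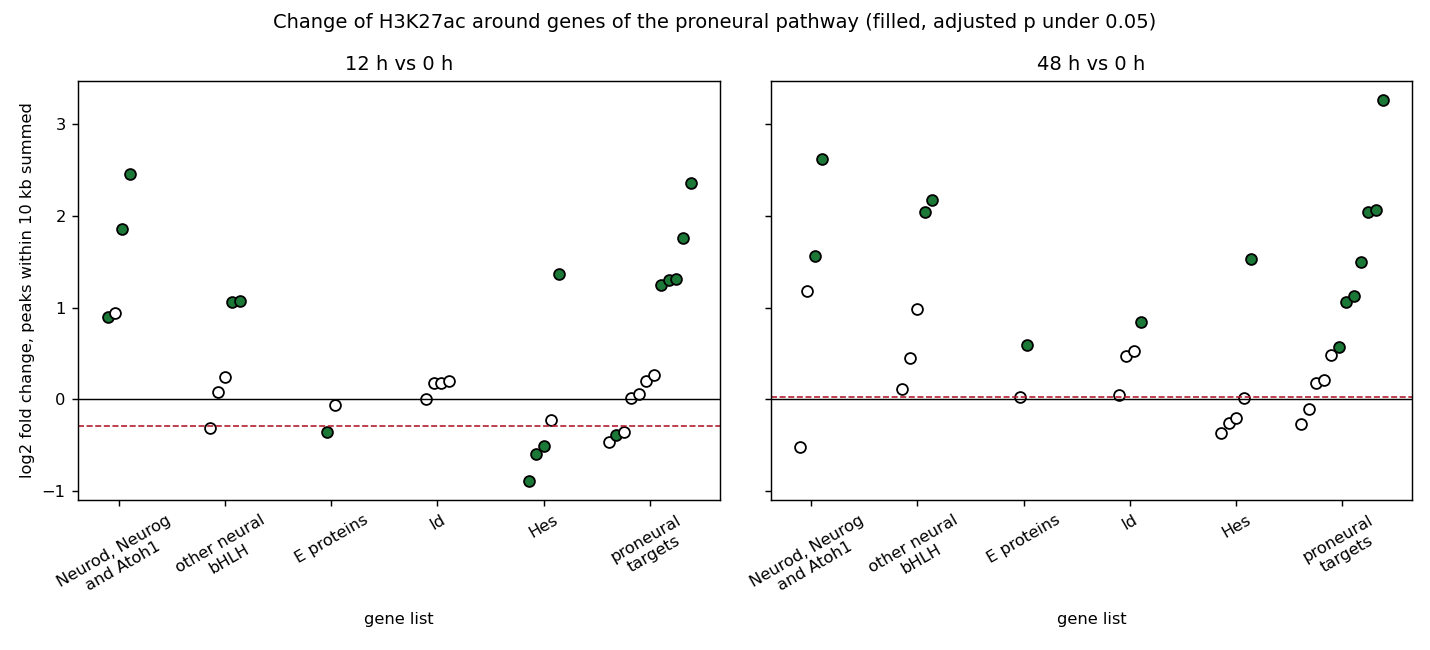
Log2 fold changes of gene windows (1 point per gene with a peak) in the lists of the proneural pathway, for 12 h and 48 h against 0 h. Green points have an adjusted p under 0.05 in edgeR and the red dashed line is the median of all windows (−0.29 at 12 h and 0.03 at 48 h).

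Markers of other cell states were read by window in the same way. Their counts stand beside 7.13% of all windows gained and 30.2% lost at 12 h, and 6.46% and 5.36% at 48 h. Between 12 h and 48 h, 38.2% of all windows were gained and 7.72% lost. Calls with the offset on GC content stand beside other counts. Of all 16152 windows, 1261 were then gained and 3172 lost at 12 h, and 2419 and 1333 at 48 h. Between 12 h and 48 h, 6636 were gained and 1642 lost with that offset. All 8 ES cell markers had peaks, and their summed scaled counts ranged from 25262 to 25425 at 0 h, from 28452 to 28524 at 12 h, and from 17031 to 21729 at 48 h. Of these, Pou5f1 was gained at 12 h, Esrrb and Dppa5a were lost at 48 h relative to 0 h, and 6 of the 8 were lost between 12 h and 48 h. With the offset on GC content, Esrrb was also gained and Nanog lost at 12 h, and 6 of the 8 were lost at 48 h relative to 0 h. For 8 neuronal markers, 6 with a peak and none at Dcx and Snap25, the sums were 1049.7 to 1059 at 0 h, 960.4 to 984 at 12 h and 1425 to 1779 at 48 h. Map2 was gained and Elavl3 lost at 12 h, and Tubb3, Map2 and Rbfox3 were gained at 48 h. Between 12 h and 48 h, Tubb3, Map2 and Rbfox3 were gained and Syt1 was lost, the last of these not with DESeq2. With the offset on GC content, Elavl3 and Syt1 were also lost at 48 h relative to 0 h. For 8 markers of feeder fibroblasts, 4 had a peak and Postn, Twist2, Pdgfra and Thy1 had none, with sums of 405 to 422, 436 to 456 and 451 to 477. Col1a2 was gained at both time points, and at 12 h Col3a1 was gained and Col1a1 lost, the last of these not with TMM factors, DESeq2 or the offset on GC content. With that offset, Twist1 was gained and Col1a1 lost at 48 h relative to 0 h. Between 12 h and 48 h, Twist1 was gained and Col3a1 lost. Gata6, Sox17 and Foxa2 of the 4 endoderm markers and T and Mixl1 of the 4 mesoderm markers had no peak; the remaining endoderm marker summed to 253 to 274, 193 to 214 and 220.1 to 223, and the 2 remaining mesoderm markers to 106 to 114, 115 to 133 and 70.5 to 114. No endoderm or mesoderm marker was called in any of the 3 comparisons. With the offset on GC content, the mesoderm markers Eomes and Mesp1 were lost between 12 h and 48 h. The part of these cell states in the changes at the Neurod and Neurog genes was not tested.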

How the data were processed

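H3K27ac ChIP-seq of A2Lox-NeuroD1 mouse ES cells at 3 time points, with 2 libraries each, was used, and time point and replicate number were taken from the sample labels. The authors aligned reads to mm10 with Bowtie2 (local mode), sorted them with SAMtools (version 0.1.19 in the submitters' processing notes), ran MACS2 with Input as background, pooled all peak sets into merged peaks and deposited the raw read counts of these from QuasR, without normalisation. The Input library has no column in this table and was not used here.

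Counts were fitted in R 4.3.3 by glmQLFit and glmQLFTest of edgeR 4.0.16 (time point as factor, library totals as offset, all 6 libraries, no filter on low counts). The biological coefficient of variation was 14.9% for peaks and 10.5% for gene windows, with 3 residual degrees of freedom. At low read counts the counting error is wide, and the exact 95% intervals of read ratios cover counting error only. A promoter peak overlapped 2 kb on either side of a TSS of a GENCODE basic protein-coding transcript. Tables, sequences and figures were made with Python 3.11.15, numpy 2.4.6, pandas 2.3.3, scipy 1.17.1, pysam 0.24.0 and matplotlib 3.10.9. Promoter windows started upstream of the most upstream GENCODE or RefSeq start.

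All 8 genes and every merged peak in their windows were named, whatever the result. For genes with a mean window sum of at least 20 scaled counts, the 3 genes of closest profile were sought, on log2(scaled count + 8). The genes and lists were chosen with earlier results of these data known. Alternatives were TMM factors, DESeq2 1.42.0, a requirement of 10 or more counts in 2 libraries, the replicate number as a block, the 4 compared libraries alone, an offset on GC content (a lowess curve per library), a minimum change of 1.5-fold, windows of 0, 5 and 25 kb, windows without promoter peaks of other genes, the set without Neurod1, and leaving out each library. The deviations of R1 and R2 from their means correlated between time points at −0.04, −0.05 and 0.08, which gave no sign of pairing by replicate number. With a median of 30.4 scaled counts per peak, counting noise lowers such correlations, so pairing is not excluded. The NeuroD1 ChIP-seq and the expression data of the study were not analysed here, and a sequence and a gene of the lists are not reported here.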

Additional observations from a re-analysis of the deposited data

Results flagged for a closer look

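At 7 of the 11 peaks, the change from 0 h to 12 h differed from the change from 0 h to 48 h by the direct test of 48 h against 12 h (edgeR's quasi-likelihood test, Benjamini-Hochberg adjustment over all merged peaks), beside 10.7% of all merged peaks gained and 8.43% lost. These were the Neurod4 peaks 0.2 kb (log2 difference 1.79), 2.0 kb (1.72) and 7.1 kb (2.36) upstream of the TSS, all higher at 48 h. The Neurod1 peak 1.8 kb upstream (−0.72), the Neurog1 peaks 6.6 kb (−1.58) and 7.8 kb (−1.13) upstream and the Neurog3 peak (−1.45) were all lower at 48 h. The 3 gene windows that differed in this way were Neurod4 (1.73), Neurog1 (−1.27) and Neurog3 (−1.45), beside 38.2% of all windows gained and 7.72% lost. The differences at Neurog1 and Neurog3 (peaks and windows) were no longer called without 12 h R1 or without 12 h R2. The same held for the Neurod1 peak and the 2 smaller of the Neurod4 peaks. In these fits, far fewer peaks and windows of the whole series were called between 12 h and 48 h as well. The difference of the Neurod4 window was not called without 12 h R1, whereas that of the Neurod4 peak 2.0 kb upstream was called in every alternative.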

How the results depend on the processing

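The main counts of called peaks were 5 (12 h against 0 h), 7 (48 h against 0 h) and 7 (48 h against 12 h), and those of called windows 3, 2 and 3. Window size changes how many are tested, from 11 peaks in 4 windows. With 0 kb, where 1 peak in 1 window was tested, the peak counts were 1, 1 and 0 and the window counts 1, 1 and 0. With 5 kb, 3, 4 and 4 of 5 peaks were called, and with 25 kb 9 and 13 of 21 peaks for the first pair, with 4 of 5 windows at 48 h against 0 h. Without Neurod1, 3 peaks were called at 12 h and 1 window at 48 h. Against a minimum change of 1.5-fold, 4 peaks were called at 48 h and 1 between 12 h and 48 h. DESeq2 called 4 peaks at 48 h and 2 between 12 h and 48 h, but gave no adjusted p for 1 and 4 of the 7 peaks called by edgeR. Without 1 library, peak counts ranged from 3 to 6, 3 to 6 and 1 to 8, and window counts from 1 to 3, 2 to 3 and 0 to 4. The lowest peak counts came without 0 h R2 (3 at 12 h and 3 at 48 h), 0 h R1 (3 at 48 h), and 12 h R1 or R2 (1 each between 12 h and 48 h). The lowest window counts came without 0 h R2 (1 at 12 h) and without 12 h R1 (0) or R2 (1) between 12 h and 48 h. A time point left with 1 library was assumed to vary like the others. Leaving out a 0 h or 12 h library also lowered the calls over all merged peaks and windows in comparisons with that time point. With the replicate block the peak counts were 5, 7 and 7 and the window counts 3, 2 and 3.

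Directions turned only where fits were not called, except at the Neurog3 window. These were the Neurod1 peak 11.1 kb downstream at 12 h (−0.16 without 12 h R1), the Neurod1 peak 7.0 kb upstream at 48 h (from −0.87 without 48 h R2 to 0.87 without 48 h R1), the Neurod4 peaks 0.2 kb (from −0.53 without 0 h R2 to 0.61 without 0 h R1, and 0.08 without 12 h R1) and 7.1 kb upstream (from −1.44 without 12 h R2 to 0.54 without 12 h R1) at 12 h, and the Neurod1 window between 12 h and 48 h (0.22 with 0 kb). The Neurog3 window with 25 kb had called gains of 1.61 at 48 h against 0 h and 0.81 between 12 h and 48 h, since that window takes in 3 more peaks. In all, 491 values of single peaks and windows kept direction and call, 70 lost and 17 gained a call, and 8 turned.

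Over all merged peaks, 10666, 9365 and 12796 were called, but 5293, 4622 and 7465 by DESeq2, 2609, 3166 and 1777 against 1.5-fold, and 21403 at 12 h with the 4 libraries alone. DESeq2 gave 4059 gained and 1234 lost peaks at 12 h and 3592 and 1030 at 48 h, in place of 5723 and 3642 at 48 h by edgeR. Over all windows, 6028 were called at 12 h and 1908 at 48 h, but at 12 h 2909 with TMM factors, 3140 by DESeq2 and 10179 with the 4 libraries alone, and at 48 h 3752 with the GC offset and 991 with the 4 libraries alone. The causes of these differences were not tested. Peaks of few reads limit what can be called here.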

Other observations

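Between 10 and 25 kb from the gene bodies lay 10 further merged peaks, and they were described after their values were seen. Relative to 0 h, 4 were gained at 12 h, beside 9.93% of all merged peaks, and 6 at 48 h, beside 8.56%, and none was lost (edgeR's quasi-likelihood test). Distances here are again from the TSS to the centre of the peak. The largest lay 13.8 kb upstream of Neurod4 (chr10:130292587-130295589), with scaled counts of 103 and 75.4 without doxycycline, 238 and 259 after 12 h and 261 and 333 after 48 h. All induced libraries exceeded both 0 h libraries, and the log2 fold change was 1.48 ± 0.22 (SE; adjusted p = 4.89e-05) at 12 h and 1.74 ± 0.22 (SE; adjusted p = 4.86e-06) at 48 h. Unlike the Neurod4 peak 2.0 kb upstream, its difference between 12 h and 48 h (0.26, adjusted p = 0.385) did not pass the test, and the difference between these peaks was not tested.

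A pair of peaks upstream of Neurog3, nearer to the TSS of Fam241b, had few reads at 0 h. The one 19.5 kb away (chr10:62113161-62113991) held 4 and 5 reads without doxycycline, 31 and 20 after 12 h and 57 and 62 after 48 h, with a log2 fold change of 3.59 ± 0.44 (SE; adjusted p = 3.32e-06) at 48 h. The one 18.6 kb away (chr10:62114161-62114842) held 1 and 2 reads, then 19 and 32, then 50 and 43. In both, the 3 time points were in rising order, unlike the Neurog3 peak 3.8 kb downstream of its TSS, where both 48 h libraries were the lowest. At Neurod2, the peaks 29.3 kb and 19.3 kb away passed the test in none of the 3 comparisons.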
